A study of Mus musculus with 2 samples.

Results

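The miR-99/100 and miR-125 families were followed in embryonic mouse heart through 6 miRNA genes, Mir99a, Mir99b, Mir100, Mir125a, Mir125b-1 and Mir125b-2, out of 1973 genes counted. The genes were chosen by name, by matching their Ensembl gene IDs to GENCODE M21 on GRCm38 (the build also called mm10), and all 6 were found. MicroRNA sequencing of RNA under 30 nt had been carried out on 2 libraries, biological replicates 1 and 2 of a single group. That group was healthy B6NCrl hearts at embryonic day 11.5, each library a pool of male and female embryos. The pool for replicate 1 held 109 embryos, and no genotype or treatment was varied. Reads on the miRNA genes' own strand totalled 18467499 in replicate 1 and 2017294 in replicate 2, and levels are given as counts per 1000000 (CPM) of these totals. At this stage the chambers are growing and the septa between them are forming. The hearts were profiled whole, so fewer cells of a type and less RNA per cell cannot be told apart.

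MicroRNAs are cut from hairpin precursors and guide Argonaute proteins to messenger RNAs, chiefly through the seed, bases 2 to 8 from the 5′ end. The miR-99/100 family is among the oldest animal miRNA families, and in human cells its members repress the growth regulators MTOR and IGF1R. The miR-125 family descends from lin-4, the first miRNA described in Caenorhabditis elegans, where it times larval development, and miR-125 represses the RNA-binding protein Lin28, a brake on let-7 maturation. Vertebrate genomes keep the families together with a let-7 gene in several clusters. In heart, miR-99a and let-7c have been tied to cardiomyocyte differentiation of mouse embryonic stem cells, and miR-99/100 to heart regeneration in zebrafish.

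The mature 5′ arms are shown because both families, and their limits in counting, are defined by them; they are RefSeq sequences on GRCm38.p6, with the seed in capitals.
miR-99a-5p: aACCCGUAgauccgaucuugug
miR-100-5p: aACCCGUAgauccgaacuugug
miR-99b-5p: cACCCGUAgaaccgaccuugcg
miR-125a-5p: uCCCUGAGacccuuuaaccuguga
miR-125b-5p: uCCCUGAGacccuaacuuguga

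All 3 miR-99/100 arms carry 1 seed and all miR-125 arms another. Counted from 1 at the 5′ end, miR-99a-5p differs from miR-100-5p by a single substitution, U16A, so that their first 15 bases are identical. It differs from miR-99b-5p at 4 positions, A1C, U11A, U16C and U21C, of which none lies in the seed. miR-125a-5p has 24 bases and miR-125b-5p has 22, and they share their first 13. The miR-125b-5p arm is the product of both Mir125b-1 and Mir125b-2: among 2201 miRNA genes of GENCODE M21, 2 hold that sequence, whereas each of the other 10 listed arms occurs in 1 gene. A read of the full miR-125b-5p arm therefore has no single place of origin. By the layout of the count tables, reads that map to several places stand in a separate row (12025096 reads in replicate 1 and 1174235 in replicate 2) and on no gene. How many of them were miR-125b was not tested. The levels of Mir125b-1 and Mir125b-2 are for this reason counts of the reads assigned to each locus and no measure of miR-125b.

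The 3′ arms, which do tell those loci apart, are shown for the same reason.
miR-125b-1-3p: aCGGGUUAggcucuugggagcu
miR-125b-2-3p: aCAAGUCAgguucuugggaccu
miR-125a-3p: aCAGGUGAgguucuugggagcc
miR-99a-3p: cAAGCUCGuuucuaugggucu
miR-99b-3p: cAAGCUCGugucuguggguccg
miR-100-3p: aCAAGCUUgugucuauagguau

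The miR-125b 3′ arms differ from each other at 5 positions (G3A, G4A, U7C, C11U and G20C) and have different seeds, as do miR-125a-3p and miR-100-3p. miR-99a-3p and miR-99b-3p share a seed. The counts are per gene and do not say which arm a read came from. By the layout named above, a read of the exact miR-125b-5p arm stands on neither Mir125b-1 nor Mir125b-2. Whether the reads on these loci came from the 3′ arms or from altered 5′ arms was not tested. Ratios of other genes to these loci may thus set different arms against each other.

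The genes lie in 3 clusters on the plus strand, each in the order miR-99/100 member, let-7 gene, miR-125 member. On chromosome 16, Mir99a (ENSMUSG00000065530.1, chr16:77598936-77599000) and Mir125b-2 (ENSMUSG00000065472.1, chr16:77646273-77646343) lie in introns of the long non-coding gene Mir99ahg, with Mirlet7c-1 between them, and the cluster spans 47408 bases. Mir125b-2 also overlaps an exon of C130023A14Rik on the same strand. On chromosome 17, Mir99b (ENSMUSG00000065396.1, chr17:17830188-17830257) lies in an intron of Spaca6, a gene known for its part in sperm and egg fusion, and Mir125a (ENSMUSG00000065479.1, chr17:17830812-17830879) overlaps an annotated exon of it. That cluster, with Mirlet7e between them, spans only 692 bases. On chromosome 9, Mir100 (ENSMUSG00000093011.1, chr9:41531425-41531504) and Mir125b-1 (ENSMUSG00000093354.1, chr9:41581926-41582002) lie in introns of 3110039I08Rik, which RefSeq lists as a synonym of Mir100hg, with Mirlet7a-2 between them over a span of 50578 bases. Mir100 overlaps an exon of Gm48742 on the opposite strand, and Mir125b-1 an exon of Gm28119 on its own strand. No read was counted opposite any of the 6 genes.

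The heart muscle miRNAs on the marker list, Mir208a, Mir208b and Mir499, summed to 58391 CPM in replicate 1 and 63137 CPM in replicate 2, and all 3 were detected. Of other muscle miRNA genes, named after their values were seen, Mir1a-1 had only 2.98 and 1.49 CPM and Mir133a-1 only 1.62 and 5.45 CPM. Each has a copy elsewhere with the same main arm, so these low counts carry the same limit as those of the Mir125b loci. In replicates 1 and 2, Mir133b had 3.95 and 6.44 CPM and Mir206 had 65.6 and 48.6 CPM. Whether the same limit holds for them was not tested. The endothelial Mir126a stood at 79505 and 84700 CPM, and the smooth muscle miRNAs Mir143 and Mir145a summed to 93726 and 98626 CPM. Nearly all of that sum was Mir143, at 92564 and 97313 CPM in replicates 1 and 2, while Mir145a had 1163 and 1313 CPM. Marker sums of other tissues were lower. Red cell miRNAs (2 of 2 detected) summed to 995 and 983 CPM, and the liver's Mir122 had 395 and 160 CPM. The epithelial miR-200 list (5 of 5) summed to 1324 and 831 CPM. None of the 5 nervous system genes in the table reached 1 CPM in both libraries, and their sum was 1.46 CPM in replicate 1 and 0 in replicate 2; the Mir124a and Mir9 loci share mature sequences, so these counts are uncertain. The part of these cells in the levels of the miR-99/100 and miR-125 genes was not tested.

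The miR-99/100 family took 8.33% of miRNA counts in replicate 1 and 7.89% in replicate 2, or 8.11% ± 0.31 (SD, n = 2). The exact 95% Clopper-Pearson intervals, which like all intervals here cover counting error only, were 8.31 to 8.34% and 7.85 to 7.93%. The miR-125 family took 0.489% and 0.488%, or 0.488% ± 0.0003 (SD, n = 2), with intervals of 0.485 to 0.492% and 0.479 to 0.498%. With multimapping reads added to the denominator the mean shares were 5.01% for miR-99/100 and 0.302% for miR-125. The family totals stood 16.6-fold apart, with a log2 ratio of miR-99/100 over miR-125 of 4.09 in replicate 1 and 4.01 in replicate 2 (4.05 ± 0.05). Since an exact two-sided sign-flip test on 2 libraries cannot go below p = 0.5, ratios carry no p. "Larger than the spread" means that the log2 ratio had 1 sign in both libraries, that neither exact binomial interval held 0, and that the mean was greater than the SD. The family ratio met this, but its lower term leaves out any miR-125b read that mapped to several places.

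Mir99a had 55497 CPM in replicate 1 and 52645 CPM in replicate 2, from 1024898 and 106201 counts. It averaged 54071 ± 2017 CPM (SD, n = 2) and ranked 5 among all 1973 genes. All ranks here are over reads assigned to genes. Multimapping reads, 33.8% and 33.2% of mapped reads in replicates 1 and 2, enter no rank, so genes with copies may rank too low. The libraries lay close together, with an SD of 3.73% of the mean. Mir99a alone made up 66.7% ± 0.06 of the miR-99/100 counts and 62.9% ± 0.07 of the counts of both families. In mean level it stood between Mir322, an X-linked miRNA of the miR-15/16 family, at 80309 CPM and Mir208b, the miRNA of the Myh7 gene, at 48339 CPM.

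Mir99b had 22751 CPM in replicate 1 and 21887 CPM in replicate 2, from 420152 and 44153 counts, and averaged 22319 ± 611 CPM (SD, n = 2). It ranked 9, next to Mir26b at 23736 CPM and Mir130a at 22306 CPM. As with Mir99a, replicate 1 was the slightly higher library. Mir99a exceeded Mir99b 2.42-fold, with log2 count ratios of 1.29 and 1.27 in replicates 1 and 2 (1.28 ± 0.01), which was larger than the spread.

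Mir100 had 5017 CPM in replicate 1 and 4345 CPM in replicate 2, from 92645 and 8766 counts. Its mean of 4681 ± 475 CPM (SD, n = 2) ranked 37, and its SD of 10.1% of the mean was the widest of the 6 genes. Its neighbours in level were Mir18, of the miR-17-92 cluster, at 4840 CPM and Mir379, of the Dlk1-Dio3 cluster, at 4615 CPM. Mir99a exceeded Mir100 11.6-fold (log2 ratio 3.53 ± 0.09) and Mir99b exceeded it 4.78-fold (2.26 ± 0.11), both larger than the spread. The split of reads between Mir99a and Mir100 rests on base 16 of the 5′ arm and on bases outside it. No source used here gives the mismatches that the alignment allowed, so the smaller of the counts, that of Mir100, is the less certain.

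Mir125a led its family, with 3726 CPM in replicate 1 and 3778 CPM in replicate 2, from 68810 and 7622 counts. It averaged 3752 ± 37 CPM (SD, n = 2), ranked 43, and held 76.8% ± 0.80 of the miR-125 counts. Mir140, a cartilage miRNA, stood just above it at 3990 CPM and Mir10a just below at 3675 CPM. Mir125b-2 had 597 and 594 CPM in replicates 1 and 2, from 11026 and 1198 counts, with a mean of 595 ± 2 CPM and rank 101. Mir125b-1 had 562 and 509 CPM, from 10384 and 1027 counts, with a mean of 536 ± 38 CPM and rank 107. Both libraries put the Mir125b loci far below Mir125a: Mir125a exceeded Mir125b-2 6.30-fold (log2 ratio 2.66 ± 0.02) and Mir125b-1 7.01-fold (2.81 ± 0.12). Both ratios were larger than the spread, and both carry the limit on miR-125b named above. In level they were flanked by Mir374b at 609 CPM and Mir300 at 587 CPM around Mir125b-2, and Mir195a at 541 CPM and Mir455 at 523 CPM around Mir125b-1. All 6 genes stood above the median of 80.5 CPM over the 419 detected genes, those with at least 1 CPM in each library.

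**Figure D1:**
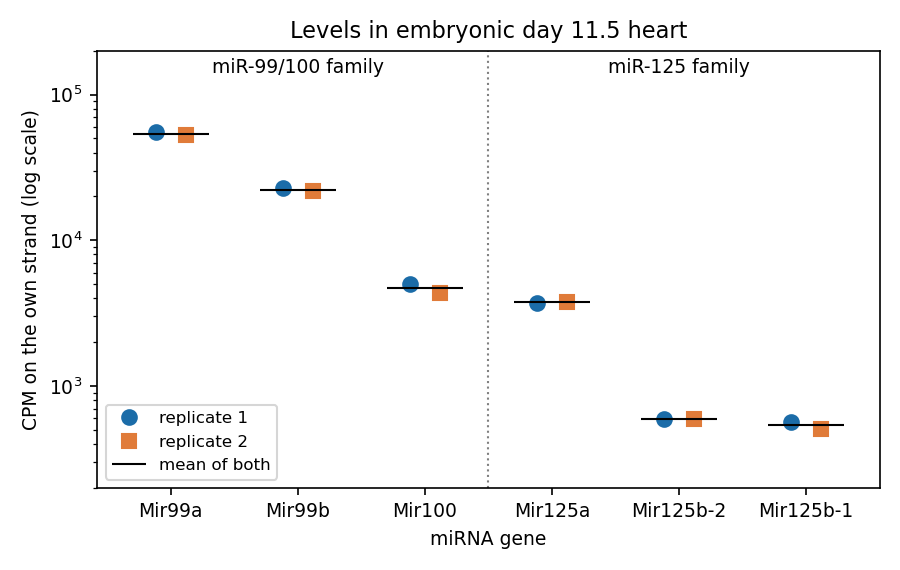
CPM on the own strand (log scale) of the 6 genes, with a circle for replicate 1, a square for replicate 2 and a line at their mean. The levels fall from Mir99a at 54071 CPM to Mir125b-1 at 536 CPM, and within a gene the libraries lie close together.

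A small RNA read covers most of a mature arm, so counts were not divided by length; the annotated hairpins run from 65 bases (Mir99a) to 80 bases (Mir100), and each order was also read per hairpin base. As counts, neighbours in the order differed beyond their spread all the way down. The order was taken from these same counts, so this describes the steps and is no test of the order. The narrowest steps were Mir100 over Mir125a, whose log2 ratio was 0.43 in the first library and 0.20 in the second (0.32 ± 0.16), and Mir125b-2 over Mir125b-1, at 0.09 and 0.22 (0.15 ± 0.10). Per hairpin base, Mir100 and Mir125a no longer differed beyond the spread, at log2 ratios of 0.19 and -0.03 (0.081 ± 0.16). The step from Mir125b-2 to Mir125b-1 remained, at 0.20 and 0.34 per hairpin base (0.27 ± 0.10), but these loci share an arm and their counts are uncertain. The other members kept the order Mir99a, Mir99b, Mir100 on both scales, with per-base folds of 2.61 for Mir99a over Mir99b and 5.46 for Mir99b over Mir100.

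Within each cluster the miR-99/100 gene had the higher count, by very different factors. On chromosome 17, Mir99b exceeded Mir125a 5.95-fold, with log2 count ratios of 2.61 and 2.53 in replicates 1 and 2 (2.57 ± 0.05). On chromosome 9, Mir100 exceeded Mir125b-1 8.73-fold, at 3.16 and 3.09 (3.13 ± 0.05). On chromosome 16, Mir99a exceeded Mir125b-2 90.8-fold, at 6.54 and 6.47 (6.50 ± 0.05). All 3 ratios were larger than the spread, and per hairpin base they were 5.78-fold, 8.40-fold and 99.2-fold. The log2 ratio on chromosome 9 lay 0.55 above that on chromosome 17 in replicate 1 and 0.56 above it in replicate 2, and that on chromosome 16 lay 3.93 and 3.94 above it. The libraries lay closer to each other in these steps than the counting error of the ratios, whose replicate 2 interval on chromosome 16 alone ran from 6.39 to 6.55. Only the chromosome 17 ratio is free of a Mir125b locus.

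The let-7 genes between them gave low counts in the clusters where they have a row of their own. Mirlet7c-1 received 1283 counts from replicate 1 and 140 from replicate 2 (69.5 and 69.4 CPM), and Mir99a exceeded it 778-fold (log2 ratio 9.60 ± 0.05). Mirlet7a-2 had 864 and 82 counts (46.8 and 40.6 CPM), and Mir100 exceeded it 107-fold (6.74 ± 0.003). Both let-7 genes have near-identical copies elsewhere, so their counts have the same limit as Mir125b-1 and do not measure let-7c or let-7a. On chromosome 17, Mirlet7e was not analysed here as a gene of its own. It lies opposite to Gm25927, and the strand opposite to Gm25927 drew 83792 counts from replicate 1 and 8777 from replicate 2. On the CPM scale of the own-strand totals Mir99b stood at 22751 and 21887, Mir125a at 3726 and 3778, and that strand at 4537 and 4351.

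**Figure D2:**
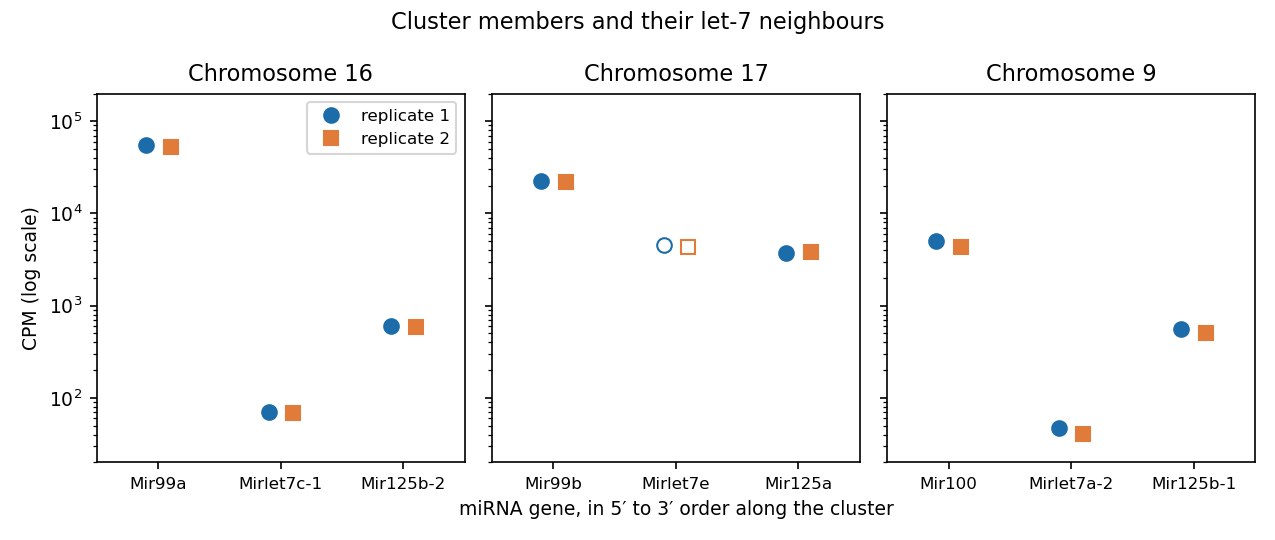
CPM (log scale) of the genes of each cluster in 5′ to 3′ order, with circles for replicate 1 and squares for replicate 2; open symbols are opposite-strand reads at Gm25927, where Mirlet7e lies. The miR-99/100 gene is highest in each cluster, and Mirlet7c-1 and Mirlet7a-2 lie at 69.4 and 43.7 CPM in mean.

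By cluster, the chromosome 16 members took 5.61% of miRNA counts in replicate 1 and 5.32% in replicate 2 (5.47% ± 0.20), those of chromosome 17 took 2.65% and 2.57% (2.61% ± 0.06) and those of chromosome 9 took 0.558% and 0.485% (0.522% ± 0.051). The chromosome 16 sum exceeded that of chromosome 17 2.10-fold (log2 ratio 1.07 ± 0.02), and the chromosome 17 sum exceeded that of chromosome 9 5.01-fold (2.32 ± 0.11). Both steps were larger than the spread, as were all 15 ratios among the family genes, their let-7 neighbours and these sums. Ratios to Mir351, taken up below, are not among the 15. The chromosome 16 and chromosome 9 sums each include a Mir125b locus, with the limit named above, and no sum includes let-7 reads.

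Other miRNAs can carry the same seed. A search of 1738 RefSeq mature entries, made after the counts had been seen, found the miR-99/100 seed in no gene beyond Mir99a, Mir99b and Mir100, and the miR-125 seed in 3 further genes, Mir351, Mir6367 and Mir6394. The arm of Mir351, a gene on chromosome X next to Mir322, is shown beside that of miR-125a because they share the first 8 bases. Compared position by position without gaps, the arms differ at 14 of the later positions. Both nevertheless hold the runs cccuuu and ccug after the seed, at shifted positions, so their likeness is not limited to the seed.
miR-351-5p: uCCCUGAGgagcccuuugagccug
miR-125a-5p: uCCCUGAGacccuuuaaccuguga

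The 3 miR-125 genes together had 90220 counts in replicate 1 and 9847 in replicate 2, against 223152 and 21571 for Mir351. Mir125a had 3726 and 3778 CPM, against 12084 and 10693 CPM for Mir351. The log2 ratio of the miR-125 family over Mir351 was -1.31 in replicate 1 and -1.13 in replicate 2 (-1.22 ± 0.12), larger than the spread. Mir6367 and Mir6394 had no counts, which allows up to 0.162 CPM in replicate 1 and 1.49 CPM in replicate 2, from 3 counts of each total. Of the 16272 ± 986 CPM (SD, n = 2) on genes with the miR-125 seed, the miR-125 genes held 28.8% in replicate 1 and 31.3% in replicate 2. Genes with the miR-99/100 seed held 83265 and 78878 CPM, all on Mir99a, Mir99b and Mir100. The miR-125 sum leaves out miR-125b reads that mapped to several places, and the multimapping rows (12025096 and 1174235 reads) exceed the gap to Mir351, so the share and the order against Mir351 hold for the reads assigned to genes only. Reads from 3′ arms, which carry other seeds, are included in these sums. By the layout of the counts, the reads on Mir125b-1 and Mir125b-2 are not the exact 5′ arm that these loci share. How many of them carry the miR-125 seed was not tested.

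**Figure D3:**
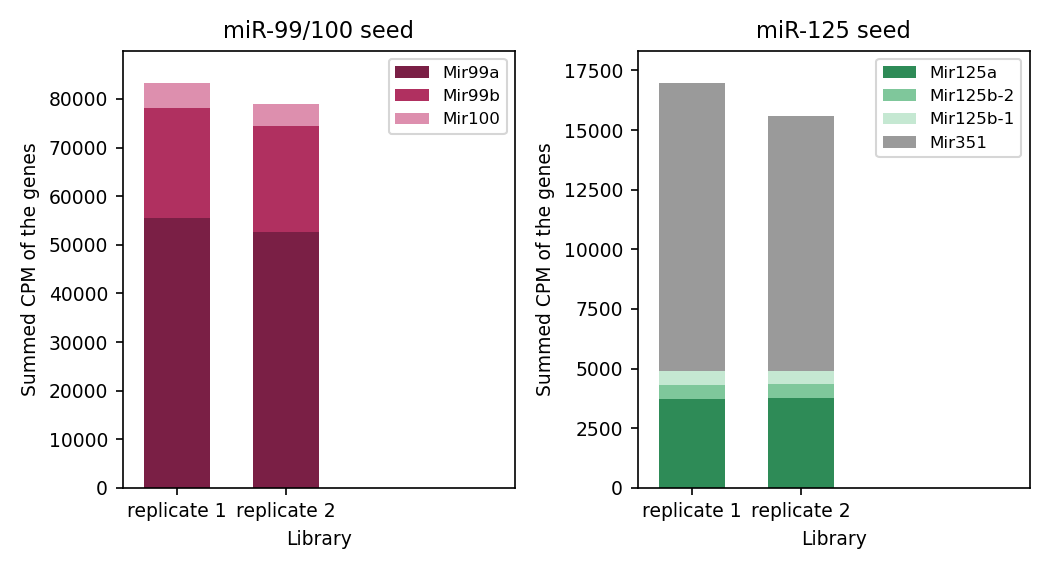
Summed CPM (linear scale, from 0) of the genes whose mature 5′ arm carries the miR-99/100 seed (left) or the miR-125 seed (right), stacked by gene for replicates 1 and 2. Mir99a is the largest layer on the left, and Mir351 at 12084 and 10693 CPM is the largest on the right.

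The miR-10 genes, which lie in the HOX clusters and whose arms resemble those of miR-100 shifted by a base, stood lower than the leading miR-99/100 genes. The longest run that miR-100-5p shares with miR-10a-5p has 11 bases. Mir10a had 4226 CPM in replicate 1 and 3123 CPM in replicate 2, and Mir10b had 781 and 800 CPM. The 9 let-7 genes counted under symbols starting with Mirlet7 were all detected. Together they took 3.67% of the counts in replicate 1 and 3.28% in replicate 2. Mirlet7g at 17446 CPM and Mirlet7i at 13683 CPM in mean, neither of which lies in the clusters above, led them. Left out are let-7 reads that mapped to several places and the strand opposite Gm25927, where Mirlet7e lies, at 4444 CPM in mean. The share and order therefore hold for reads assigned to these genes and do not measure the let-7 family.

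The libraries were then set against each other gene by gene, as the ratio of replicate 1 to replicate 2 with a two-sided exact binomial test on the counts, Benjamini-Hochberg adjusted over the 419 detected genes. The test compares 2 libraries, not conditions, and allows for counting error alone. At an adjusted p under 0.05, 4 of the 6 genes were called, all higher in replicate 1, against a background of 29.4% of detected genes called in either direction and 15% called higher in replicate 1. Mir100 was 1.15-fold higher (interval 1.13 to 1.18, exact binomial adjusted p = 6.22e-38). Mir125b-1 was 1.10-fold higher (1.04 to 1.18, exact binomial adjusted p = 0.00964), Mir99a was 1.05-fold higher (1.05 to 1.06, adjusted p = 1.61e-59) and Mir99b was 1.04-fold higher (1.03 to 1.05, adjusted p = 8.96e-14). Mir125a, at a ratio of 0.986 (0.963 to 1.01), and Mir125b-2, at 1.01 (0.947 to 1.07), did not pass (exact binomial, adjusted p = 0.476 and 0.969). Deep counts let very small ratios pass: of the 86 detected genes at 1000 CPM or more in mean, 26 were called higher and 33 lower in replicate 1.

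None of the 6 genes was called with a fold of at least 2, a rule met by 2.63% of detected genes. Their absolute log2 ratio had a median of 0.07, beside 0.15 over all 419 detected genes and 0.07 over the genes at 1000 CPM or more. The signed median was 0.07, beside 0.01 over all detected genes. An exact test in edgeR with 1 dispersion shared by all genes, called 0 of the 6 (unadjusted p between 0.603 and 0.984) and 0.955% of detected genes. Its dispersion, a coefficient of variation of 17.9%, was estimated from the same difference between these libraries that it tests, so ratios as small as those of the 6 genes could hardly pass. Both genes of the chromosome 9 cluster were among those called by the binomial test, and of the other clusters only Mir99a and Mir99b were.

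**Figure D4:**
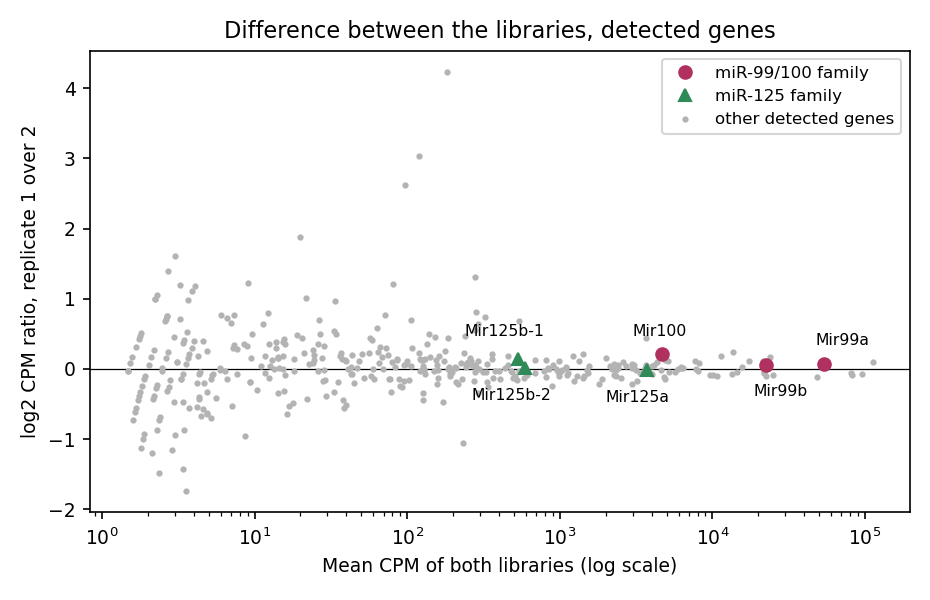
log2 CPM ratio of replicate 1 over replicate 2 against mean CPM (log scale) for the 419 detected genes (grey), with the miR-99/100 genes as circles and the miR-125 genes as triangles. The 6 genes lie between -0.02 (Mir125a) and 0.21 (Mir100).

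Among related genes, 4 of the 9 let-7 genes were called higher in replicate 1 (exact binomial), 0 lower and 5 not called, against the 15% of detected genes called higher, with a median log2 ratio of 0.12. Mirlet7i was 1.18-fold and Mirlet7g 1.09-fold higher, while the cluster neighbours Mirlet7c-1 (1.00-fold) and Mirlet7a-2 (1.15-fold) were not called. Mir10a was 1.35-fold higher in replicate 1 and Mir10b, at 0.977, was not called.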

How the data were processed

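For each library the authors supplied a table of raw counts over miRNA genes (mm10, GENCODE M4), as the deposited notes state. No source used here names the aligner or counter. The 3 count columns bear no names and were read from their layout as both strands, own strand and opposite strand; own plus opposite gave the first column in all 1973 genes. Own-strand counts were used. The 4 summary rows were left out of totals; in replicates 1 and 2 they held 38.4% and 27.5% unmapped, 20.8% and 24.1% multimapping and 8.77% and 7.04% no-gene reads. Gene IDs of 1894 genes matched GENCODE M21 on the same build. The genes and lists were chosen with earlier results of these data known. Other named genes were the neighbours within 100 kb, the genes above and below in mean CPM, let-7 and miR-10 genes, and markers; seed sharers were added later. Nothing says that the replicates came from separate litters, so their spread may be partly technical. Intervals are exact 95% Clopper-Pearson (SciPy 1.17.1). edgeR 4.0.16 (TMM, exact test) and DESeq2 1.42.0 (size factors) served as alternatives, since 1 group of 2 libraries leaves no contrast for edgeR's quasi-likelihood test. The binomial library test and the ratio intervals were checked on simulated counts with counting error only. That check does not cover differences between libraries beyond counting error, and the edgeR test was not simulated.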

Additional observations from a re-analysis of the deposited data

Results flagged for a closer look

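Reads on the strand opposite Gm25927, where Mirlet7e lies between Mir99b and Mir125a, stand outside the own-strand counts and above the limit that 0 counts allow. They numbered 83792 in replicate 1 and 8777 in replicate 2, or 4444 ± 132 CPM (SD, n = 2) on the scale of the own-strand totals, while Gm25927 itself had 0 own-strand counts in both libraries. No source used here labels the columns as strands.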

How the results depend on the processing

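All 15 ratios without Mir351 stayed larger than the spread with 0.5 added counts, and 11 of the 12 single-gene ratios did per hairpin base. With either replicate left out they kept their direction and the remaining library's interval excluded equality, but there is then no spread. Unstranded counts could not move them, since the genes have no opposite-strand reads. The exception was Mir100 over Mir125a, at a log2 ratio of 0.081 per hairpin base, through the lengths alone. Shares depend on their denominator. With unstranded counts the miR-99/100 family took 7.74%, the miR-125 family 0.466% and both 8.21%. With multimapping reads in the denominator they took 5.01%, 0.302% and 5.32%. Without Mir125b-1 and Mir125b-2 the miR-125 share was 0.375%. With 1 replicate left out the shares ran from 7.89 to 8.33%, 0.488 to 0.489% and 8.38 to 8.82%. Genes called between the libraries numbered 123, from 114 to 128 under other scalings, filters and unstranded counts, with the same 4 family genes called; an exact test in edgeR with a shared dispersion called 4 genes and 0 of the family, and gave Mir125b-2 a log2 ratio of -0.0078, against 0.0077. No paired analysis was possible because there is 1 group. Depth limits replicate 2, where 0 counts allow 1.49 CPM.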
